A study of Mus musculus with 9 samples.

Results

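Genes of the interferon response and of MHC class I antigen presentation were followed in mouse embryonic fibroblasts (MEFs) that expressed a metatherian or a eutherian CRX. The 50 genes were taken by name from the count table. Of the 22068 genes listed there, 48 were members. *Mx1* and *Mx2* were not analysed here. Of the 48, 42 passed the filters on low values and were tested, and their lowest count in any library was 66. The 6 that did not pass were *Dhx58*, *Zbp1*, *Rsad2*, *Oas1a*, *Oas2* and *Cmpk2*, and none of them was above 2.54 FPKM (fragments per kilobase of exon, scaled to the size of the library) in any library. Of the 42, 6 (*Iigp1*, *Gbp3*, *Parp14*, *Oasl1*, *Xaf1* and *Ifi44*) exceeded the filter of 2 FPKM only in the mean of metatherian CRX. A gene that passed in this way had to be high there, so that the main counts and medians are also given for the other 36.

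Primary MEFs of strain C57Bl/6 at passage 2, which are connective tissue cells of the embryo, received by electroporation a plasmid for V5-tagged opossum CRX (metatherian CRX), for V5-tagged human CRX (eutherian CRX) or for no homeobox gene (control). Each plasmid also carried a puromycin resistance gene. All cells, controls included, were kept in puromycin for 5 days. The sample labels give 48 hours of recovery after it. The methods of the study give 48 hours of recovery between electroporation and puromycin, and overnight culture after puromycin. Poly-A RNA was sequenced from 3 libraries of each condition on a single chip. The cells were a resistant population rather than a clone, and the promoter that drives CRX is not given in the sources used here. RNA was harvested in triplicate, and nothing says that the 3 libraries came from separate cultures. The p-values therefore measure the spread between these libraries, which may be technical. In bulk RNA, fewer cells of a type cannot be told apart from less RNA per cell.

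CRX is a homeodomain transcription factor best known from photoreceptors of the eye, and MEFs are not a tissue where it normally acts. Interferons are secreted proteins that signal through cell surface receptors and JAK kinases. Type I interferon acts through the interferon-stimulated response element (ISRE) in promoters, where STAT2 and IRF9 take part, whereas type II interferon acts through the gamma-activated site (GAS). The induced genes encode sensors of foreign nucleic acids, antiviral effectors and GTPases that act on vacuoles of pathogens. They also encode the machinery that loads peptides onto MHC class I molecules for display to T cells.

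The promoters of these genes carried the letters of the ISRE more often than promoters at large. RefSeq start sites on GRCm38.p6 were matched for 39 of the 50 genes, and the 250 bases before each start were searched on both strands. The ISRE letters (GAAA, 2 bases of any kind, GAAA) were found before 15 of the 39 (38.5%), against 3.46% of the 27025 genes of the RefSeq table. The GAS letters TTCNNNGAA were found before 9 (23.1%), against 8.13% of genes. TAATCC, the core letters that CRX binds, was found before 4 (10.3%), against 7.21%. Patterns may overlap, and a match is a description of the letters and not a measured binding site. By role, the ISRE letters stood before 6 of 6 IRG and GBP GTPases, 6 of 14 antiviral effectors, 1 of 5 STAT and IRF factors and partners (*Stat2*), 1 of 5 in the group of the ISG15 protease and other induced genes (*Cxcl10*), 1 of 7 genes of MHC class I presentation (*B2m*) and 0 of 2 sensors. Stretches that hold them are shown for the 4 genes with the lowest p-values among those with the letters, with the ISRE letters in capitals (TTTC marks the opposite strand).
Irgm1: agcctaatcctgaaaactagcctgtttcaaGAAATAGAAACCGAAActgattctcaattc
Igtp: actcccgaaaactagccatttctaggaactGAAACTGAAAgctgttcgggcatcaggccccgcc
Ifit1: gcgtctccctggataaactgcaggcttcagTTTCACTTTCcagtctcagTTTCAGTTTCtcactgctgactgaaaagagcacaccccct
Gbp3: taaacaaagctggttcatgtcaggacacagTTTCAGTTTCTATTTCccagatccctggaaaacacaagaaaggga
The stretch of *Irgm1* lies on the minus strand at chr11:48871421-48871480 and ends at the base before the start. Its pair of overlapping ISRE patterns began 30 and 24 bases before the start, and TAATCC, left in lower case, began 56 bases before it. The stretch of *Igtp*, a paralogue on the plus strand of the same chromosome, lies at chr11:58199492-58199555. Those of *Ifit1* at chr19:34640755-34640843 and of *Gbp3* at chr3:142559969-142560043 are on the plus strand and hold 2 patterns each.

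**Figure D1:**
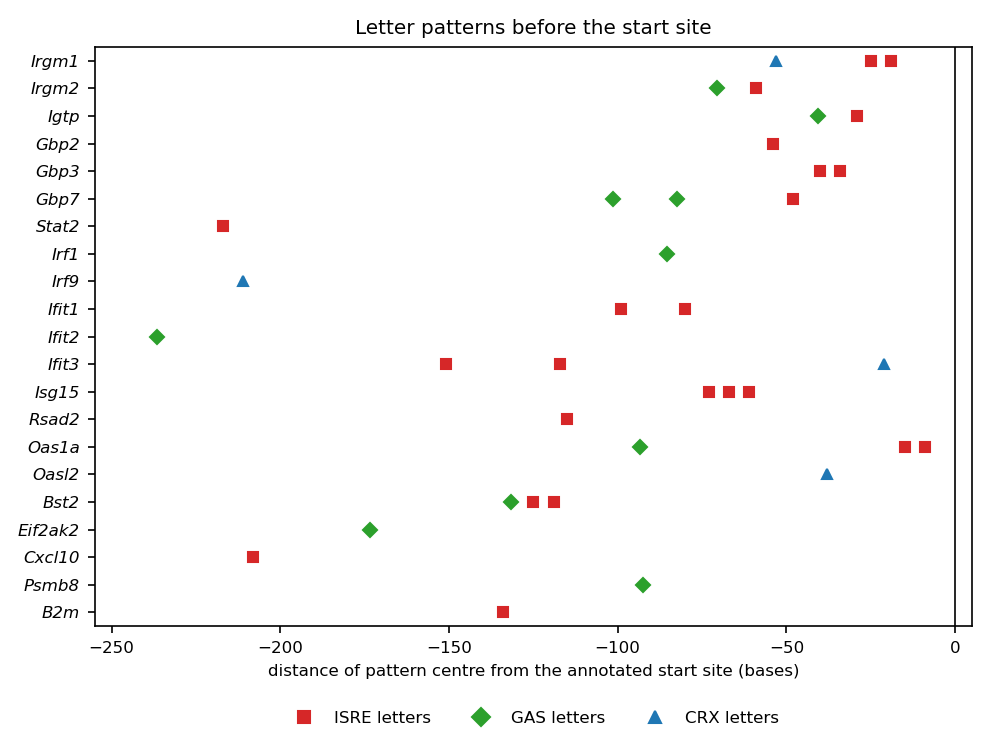
Positions of the ISRE letters (squares), GAS letters (diamonds) and CRX core letters (triangles) before the start sites of the genes that hold any of them. The x axis is the distance of the centre of each pattern from the RefSeq start in bases; ISRE letters stand before 15 genes, mostly of the GTPases and antiviral effectors, and CRX letters before 4.

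The libraries held 54145701 to 94699657 counts on genes. Reads of human CRX from the plasmid can be counted on mouse *Crx*, which had 627, 995 and 313 counts with eutherian CRX and 0 in each control library. The counts do not separate reads of the plasmid from those of the mouse gene. With metatherian CRX, mouse *Crx* had 4, 0 and 0 counts, and the expression of opossum CRX was not checked here. Replicate 3 stood apart from replicates 1 and 2 in every condition. The SD over tested genes of the log2 difference was 0.15 to 0.26 between replicates 1 and 2 of a condition and 0.45 to 0.88 between either of them and replicate 3. Among the 42 tested members it was 0.18 to 0.27 and 0.71 to 0.89. The cause was not tested. Values without these libraries are given beside the results, in fits chosen after the data had been seen.

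Metatherian CRX replicate 1 or 2 held the highest level of 27 of the 42 tested members (10 in replicate 1, 17 in replicate 2), or 64.3%, against 12.4% of all genes. Of the 36 that passed the filter in another condition too, it was 22 (61.1%). Metatherian CRX replicate 3 held the highest level of 0 of the 42, against 19.8% of all genes, and the lowest of 11. Control replicate 3 held the highest of 7, which is near its share of 17.3% of all genes. The 3 eutherian CRX libraries together held that of the other 8 (3, 2 and 3, against 6.04%, 11.1% and 18.1% of all genes). The median member lay 0.80 and 0.83 above the control mean on the log2 scale in metatherian CRX replicates 1 and 2, and 0.32 below it in replicate 3 (a median of -0.32), whereas the median over all tested genes was within 0.02 of the control mean in each library (-0.015 to 0.0055). Over the 36, the medians in metatherian CRX replicates 1, 2 and 3 were 0.74, 0.78 and -0.35. In control replicate 3 the median member stood at 0.26, and in eutherian CRX replicate 3 at -0.47.

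**Figure D2:**
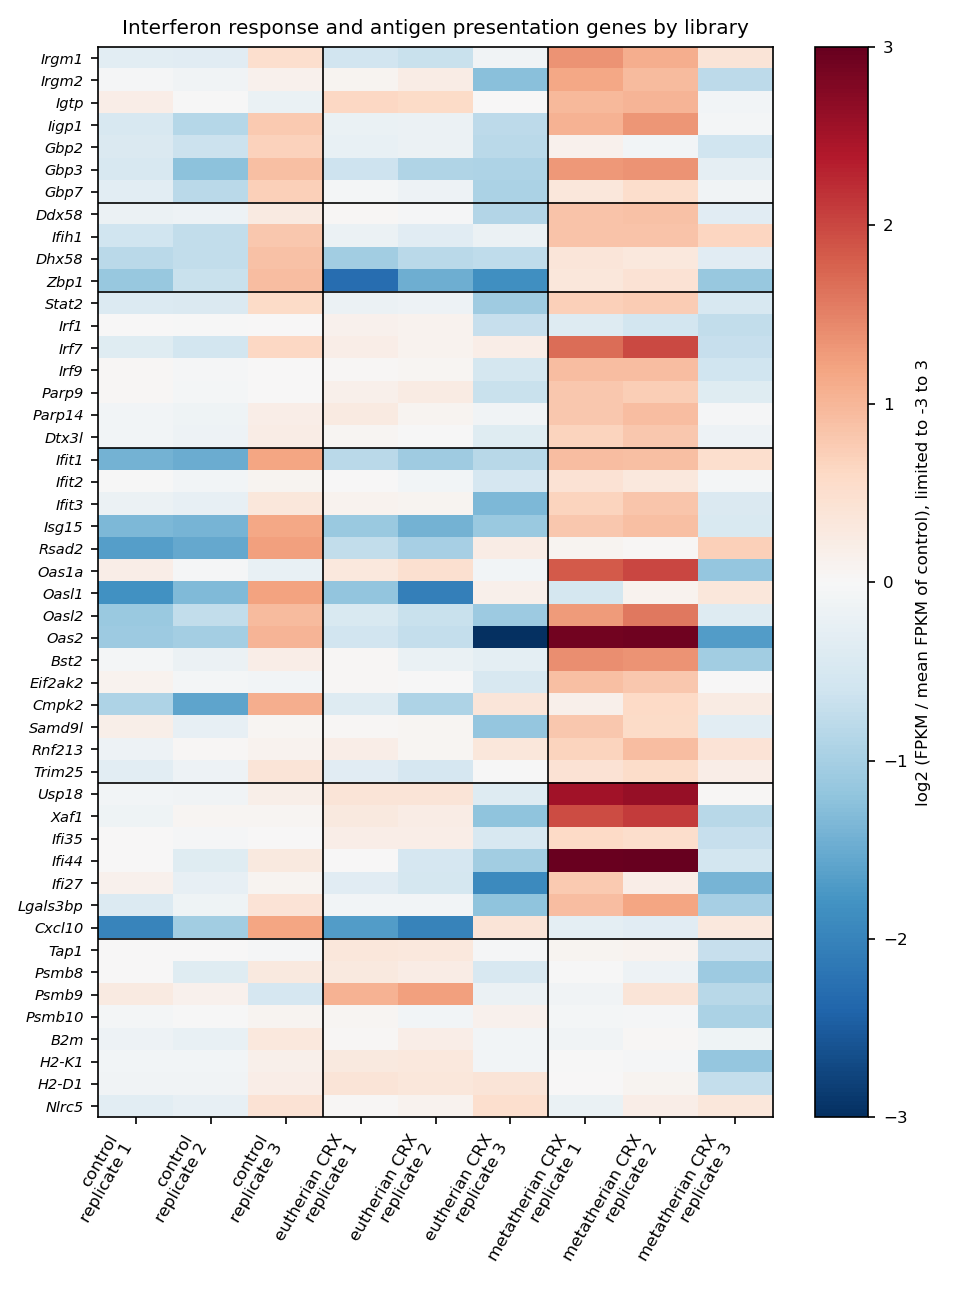
Level of the 48 genes with a row (rows, grouped by role) in each of the 9 libraries (columns), as the log2 ratio of FPKM to the mean of the 3 control libraries, with colours limited to -3 and 3. Metatherian CRX replicates 1 and 2 are red for most genes above the MHC class I group, control replicate 3 is red for a smaller set, and metatherian CRX replicate 3 is mostly near or below the control mean.

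The split by replicate number was the main feature of the comparison with control. Against the control library of the same number, the median member was 0.83 higher on the log2 scale in pair 1 and 0.99 in pair 2, and it was lower in pair 3, with -0.75. The same median over all genes lay near 0 in each pair. A gene was higher with metatherian CRX in exactly 2 of the 3 pairs for 35 of the 42 members (83.3%), or 29 of the 36 that passed the filter in another condition too (80.6%), against 27.6% of all genes. It was higher in all 3 pairs for 3 members, or 7.14%, against 22.2% of all genes. Outside MHC class I, metatherian CRX was above control in 33 of 34 members in pair 1, 33 of 34 in pair 2 and 3 of 34 in pair 3, against 49.7%, 49.2% and 48% of all genes. Without the 6 members that passed the filter only through metatherian CRX, these were 27, 27 and 3 of 28. Eutherian CRX showed medians of 0.25, 0.26 and -0.69 against control in pairs 1, 2 and 3. Metatherian against eutherian CRX gave 0.79, 0.83 and 0.22, all above 0. Here 27 of the 42 members (64.3%), or 21 of the 36 (58.3%), were higher with metatherian CRX in all 3 pairs, against 18.6% of all genes. The 3 comparisons share libraries, so that they do not bear on each other independently.

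**Figure D3:**
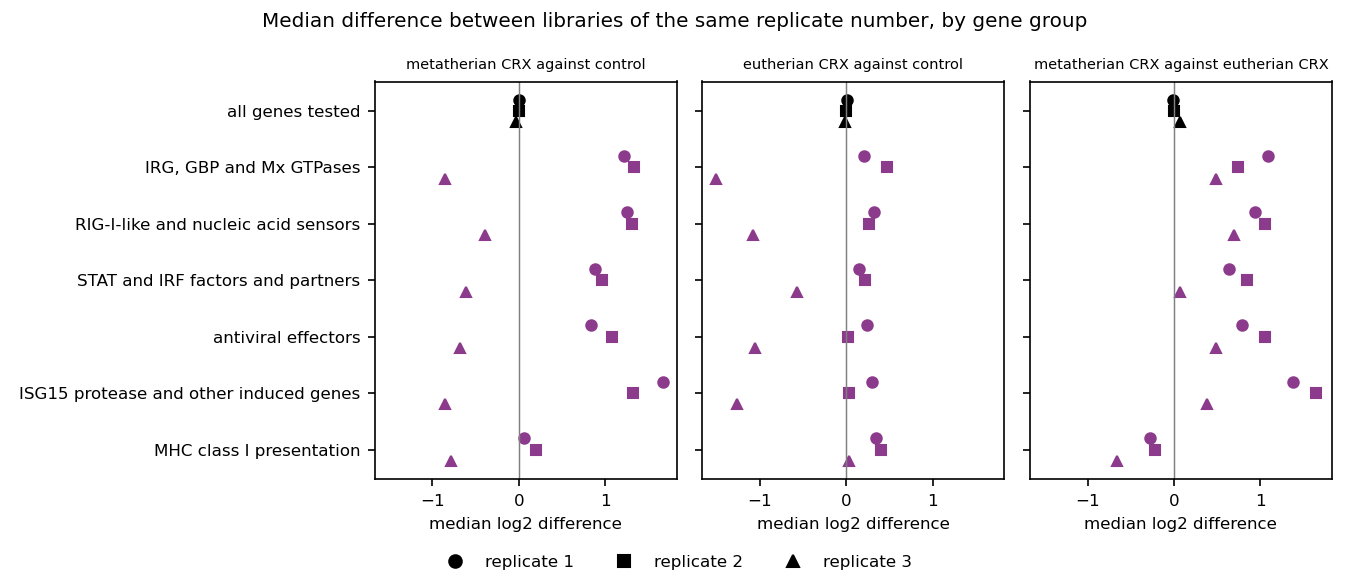
Median log2 difference in CPM between libraries of the same replicate number (circle 1, square 2, triangle 3) for each role and for all tested genes, in the 3 comparisons. Pairs 1 and 2 of metatherian CRX and control lie above 0 in every role and pair 3 below 0, while in the direct comparison of the orthologues the pairs lie above 0 in every role but MHC class I presentation, where they lie below.

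The IRG and GBP GTPases attack the vacuoles of intracellular parasites and bacteria, and IRGM1 is a regulator of the IRG family. *Irgm1*, on chromosome 11 from 48865245 to 48871415, was the most abundant of them, at 18.7, 18.6 and 32.9 FPKM in control, 15.8, 14.8 and 21.9 with eutherian CRX, and 59.8, 49.6 and 30.6 with metatherian CRX. All 3 metatherian CRX libraries were above all 3 eutherian CRX libraries, whereas control replicate 3 lay above metatherian CRX replicate 3. The fitted difference between the orthologues was 1.46 on the log2 scale, or 2.75-fold (SE 0.33, adjusted p = 0.27 from edgeR), and that from control was 1.05, or 2.07-fold (SE 0.33, adjusted p = 0.17). *Igtp*, an effector GTPase of the same family, was at 5.32, 4.61 and 4.07 FPKM in control, 7.14, 6.97 and 4.71 with eutherian CRX, and 9.13, 9.50 and 4.40 with metatherian CRX. It was higher than control with either orthologue in the fit, by 0.65 (SE 0.19, adjusted p = 0.15 from edgeR) for metatherian and 0.40 (SE 0.19, adjusted p = 0.63) for eutherian CRX. *Gbp3*, a guanylate-binding protein gene, was at 1.38, 0.818 and 3.57 FPKM in control, 1.25, 1.04 and 1.01 with eutherian CRX, and 4.76, 4.93 and 1.60 with metatherian CRX. It passed the filter only through metatherian CRX, so its values are given as a description. Of the 7 tested GTPases, 6 had a fitted change above 0 with metatherian CRX against control (median 0.65) and 7 against eutherian CRX (median 0.81). Without *Gbp3* and *Iigp1* these were 4 of 5 (median 0.41) and 5 of 5 (median 0.61). None passed the adjusted threshold. *Gbp2* and *Gbp7*, picked after their values were seen, were the 2 members more than 2-fold above the mean of control replicates 1 and 2 in control replicate 3 but not in both metatherian CRX replicates 1 and 2.

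*Ddx58* and *Ifih1* encode RIG-I and MDA5, which detect viral RNA in the cytoplasm. *Ifih1* was at 4.30, 3.94 and 11.4 FPKM in control, 5.78, 5.17 and 5.74 with eutherian CRX, and 11.9, 11.9 and 10.2 with metatherian CRX. It was the more even of the pair, with every metatherian CRX library above every eutherian one and control replicate 3 within the metatherian range. Its fitted difference was 0.93 from control (SE 0.35, adjusted p = 0.22 from edgeR) and 1.05 between the orthologues (SE 0.34, adjusted p = 0.34). *Ddx58* was at 12.5, 12.6 and 17.0 FPKM in control, 14.3, 13.7 and 7.56 with eutherian CRX, and 25.5, 25.6 and 11.0 with metatherian CRX, so that the groups overlapped in every comparison. The other 2 sensors, *Dhx58* and *Zbp1*, were below the filter.

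Among the transcription factors, *Stat2* and *Irf1* had fitted changes of opposite sign with metatherian CRX. STAT2 and IRF9 act in the type I response, and IRF7 drives the later waves of interferon genes. *Stat2* was at 9.63, 9.43 and 19.1 FPKM in control, 11.2, 11.5 and 6.05 with eutherian CRX, and 20.8, 21.5 and 9.10 with metatherian CRX. High libraries were found in both groups, and its fitted change against control was 0.34 (SE 0.46, adjusted p = 0.72 from edgeR). *Irf1*, a factor of the type II response, was the one member of this group that was lower with metatherian CRX. Its levels were 9.99, 9.75 and 9.93 FPKM in control, 10.8, 10.6 and 6.09 with eutherian CRX, and 7.52, 6.76 and 5.92 with metatherian CRX. Each metatherian CRX library was below each control library, with a fitted change of -0.57 (SE 0.18, adjusted p = 0.16 from edgeR). *Irf7*, picked after its values were seen, was at 10.9, 13.4 and 2.11 FPKM with metatherian CRX against 2.63, 2.30 and 5.25 in control. The partners *Parp9* and *Dtx3l* had fitted changes above 0 against both other groups, as did *Irf9*. *Parp14*, also a partner, passed the filter only through metatherian CRX.

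The antiviral effectors formed the largest group, and each of its 11 tested genes had a fitted change above 0 with metatherian CRX against control (0.23 to 1.24) and against eutherian CRX (0.43 to 1.86), as had 48.7% of all genes in either comparison. Without *Oasl1*, which passed the filter only through metatherian CRX, these were 10 of 10 with the same ranges. *Bst2*, which encodes tetherin and holds budding viruses at the cell surface, was the most abundant. It was at 37.2, 33.9 and 44.4 FPKM in control, 39.4, 33.7 and 31.3 with eutherian CRX, and 101, 98.5 and 18.6 with metatherian CRX. Metatherian CRX thus held both the highest levels and the lowest, with a fitted change from control of 0.72 (SE 0.53, adjusted p = 0.50 from edgeR). Over all fits, those with a library left out included, this change ranged from 0.28 to 1.49. *Eif2ak2* encodes PKR, a kinase that stops translation on sensing double-stranded RNA. It was at 14.95, 13.4 and 13.1 FPKM in control, 14.1, 13.7 and 9.91 with eutherian CRX, and 25.8, 24.1 and 13.9 with metatherian CRX. Its metatherian CRX libraries lay above those of eutherian CRX apart from replicate 3 (13.9), which fell between eutherian CRX replicates 1 and 2. The difference between the orthologues was 0.73 (SE 0.16, adjusted p = 0.27 from edgeR).

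*Rnf213*, a large ubiquitin ligase gene, had the lowest adjusted p of all members against control. It was at 4.51, 5.13 and 5.40 FPKM in control, 5.72, 5.19 and 6.38 with eutherian CRX, and 7.98, 9.59 and 6.68 with metatherian CRX. All metatherian CRX libraries were above all others, replicate 3 included, with a fitted change from control of 0.69, or 1.61-fold (SE 0.16, adjusted p = 0.11 from edgeR). *Trim25*, which encodes the ubiquitin ligase that activates RIG-I, was at 10.3, 11.5 and 16.7 FPKM in control, 10.2, 9.11 and 12.8 with eutherian CRX, and 17.4, 18.9 and 14.6 with metatherian CRX. Its orthologue groups did not overlap, with a difference of 0.70 (SE 0.20, adjusted p = 0.31 from edgeR). *Ifit1* encodes a protein that binds foreign RNA caps and carries the ISRE letters shown for it. It was at 8.78, 8.30 and 53.2 FPKM in control, 13.3, 11.1 and 13.2 with eutherian CRX, and 44.5, 43.9 and 33.3 with metatherian CRX. Here a control library, replicate 3, was the highest of all 9. *Isg15*, a ubiquitin-like protein gene picked after its values were seen, was at 14.2, 13.7 and 80.7 FPKM in control, 16.8, 13.6 and 16.7 with eutherian CRX, and 63.2, 67.6 and 26.4 with metatherian CRX. For both genes the eutherian CRX libraries were close together and below each metatherian one. *Ifit2* was flatter, at 7.02, 6.66 and 7.40 FPKM in control, 7.06, 6.61 and 4.94 with eutherian CRX, and 9.42, 8.78 and 6.80 with metatherian CRX. *Samd9l*, an antiviral restriction factor gene, was at 11.2, 8.45 and 10.4 FPKM in control, 10.2, 10.4 and 4.45 with eutherian CRX, and 17.7, 14.9 and 8.03 with metatherian CRX, and its groups overlapped. Of the untested effectors, *Oas2*, picked after its values were seen, had 287, 279 and 10 counts with metatherian CRX, 12, 22 and 69 in control, and 26, 20 and 2 with eutherian CRX.

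*Usp18* and *Ifi44* showed a wide split within metatherian CRX. *Usp18* encodes the protease that removes ISG15 from proteins and damps the type I receptor. It was at 3.63, 3.57 and 4.32 FPKM in control, 5.04, 5.02 and 2.96 with eutherian CRX, and 22.1, 23.6 and 3.91 with metatherian CRX. Metatherian CRX replicate 3 lay inside the control range, and the fitted change from control was 1.82, or 3.53-fold (SE 0.55, adjusted p = 0.15 from edgeR). *Ifi44*, an interferon-induced gene, was at 1.49, 1.17 and 1.82 FPKM in control, 1.503, 1.05 and 0.727 with eutherian CRX, and 11.6, 12.4 and 1.03 with metatherian CRX. Replicate 3 was again low, below each control library. *Ifi44*, too, passed the filter only through metatherian CRX and is given as a description. *Lgals3bp*, a secreted galectin-binding glycoprotein gene, was the most abundant of this group, at 44.6, 54.2 and 78.5 FPKM in control, 55.5, 55.5 and 25.8 with eutherian CRX, and 111, 135 and 29.8 with metatherian CRX. *Ifi27* was at 22.8, 17.7 and 22.3 FPKM in control, 16.4, 14.7 and 5.58 with eutherian CRX, and 36.4, 24.2 and 7.91 with metatherian CRX. All its eutherian CRX libraries were below all control libraries, with a fitted change of -0.999 (SE 0.43, adjusted p = 0.58 from edgeR). Over all fits, those with a library left out included, this change ranged from -1.33 to -0.30.

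**Figure D4:**
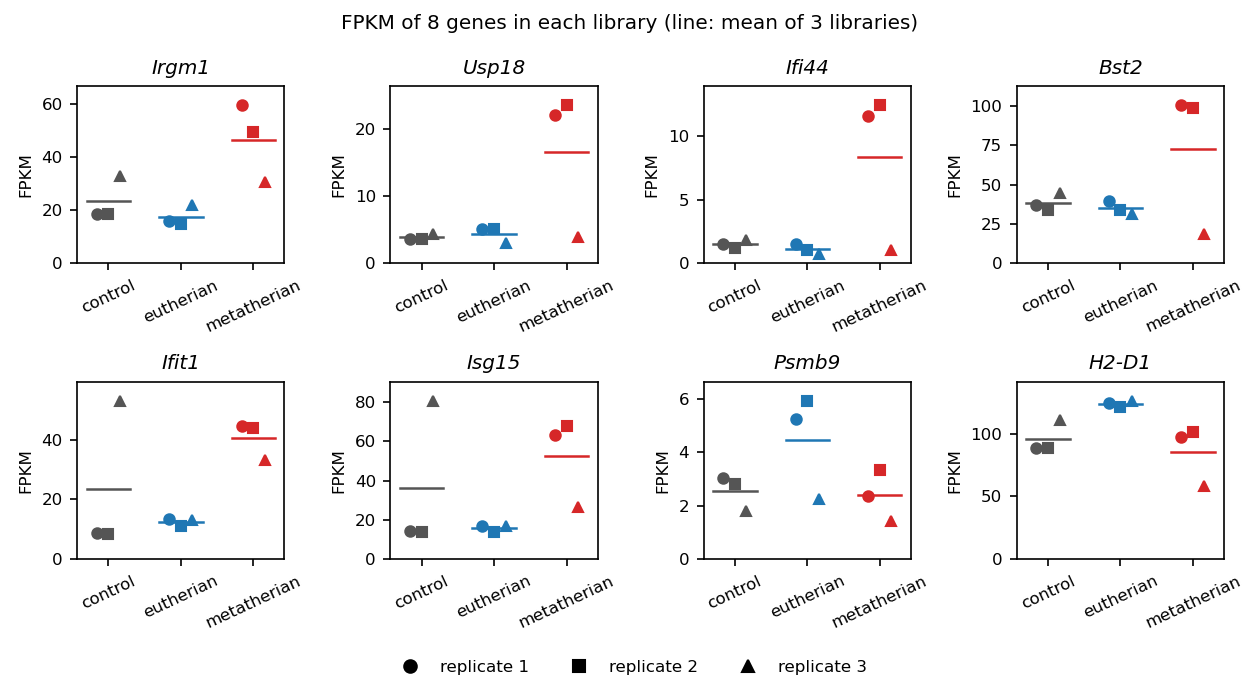
FPKM of 8 genes in each library (circle replicate 1, square 2, triangle 3; line, mean of 3 libraries), with axes that start at 0. Metatherian CRX replicates 1 and 2 stand above the other libraries for *Irgm1*, *Usp18*, *Ifi44* and *Bst2*, control replicate 3 stands highest for *Ifit1* and *Isg15*, and *Psmb9* and *H2-D1* are highest with eutherian CRX.

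The members were also sorted by which libraries were high. Relative to the mean of control replicates 1 and 2, 10 of the 48 members were over 2-fold higher in both metatherian CRX replicates 1 and 2 but not in control replicate 3. They were *Bst2*, *Ddx58*, *Ifi44*, *Irgm1*, *Irgm2*, *Lgals3bp*, *Oas1a*, *Stat2*, *Usp18* and *Xaf1*. A set of 14, which included *Ifit1*, *Isg15*, *Irf7*, *Cxcl10* and *Ifih1*, was over 2-fold higher in control replicate 3 as well. *Gbp2* and *Gbp7* passed in control replicate 3 but not in both metatherian CRX libraries. The other 22, with all 8 genes of MHC class I presentation, passed in neither. *Stat2*, at 1.999 times in control replicate 3, lay at the limit between the sets, and *Irgm1* was at 1.77 and *Irf7* at 2.13. Among the 42 tested members the sets held, in the same order, 9, 9, 2 and 22. These sets were formed on the values and carry no test. They were not counted over all genes, so that it cannot be said whether their sizes are unusual.

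The 8 members of MHC class I presentation were lower with metatherian than with eutherian CRX in the fit, unlike most other members. They encode the class I heavy chains (*H2-K1*, *H2-D1*), their light chain beta-2-microglobulin (*B2m*), the peptide transporter *Tap1*, the immunoproteasome subunits *Psmb8*, *Psmb9* and *Psmb10*, and *Nlrc5*, which activates class I promoters. Each of the 8 had a fitted difference below 0 between metatherian and eutherian CRX (median -0.38), as had 51.3% of all genes, and 2 had an unadjusted p under 0.05, against 4.17% of all genes that were lower with such a p. Against control, 7 of 8 were above 0 with eutherian CRX (median 0.17), against 50.4% of all genes, and 1 of 8, *Nlrc5*, with metatherian CRX (median -0.17), against 48.7%. The split by replicate number was seen here too, with medians of 0.064, 0.20 and -0.79 between metatherian CRX and control in pairs 1, 2 and 3. These medians turned on single libraries. Without control replicate 3 the median with metatherian CRX was 0.025, with 6 of 8 above 0, and without metatherian CRX replicate 3 it was 0.015, with 4 of 8. It was -0.31 to -0.27 without control replicate 1 or 2 or metatherian CRX replicate 1 or 2. For eutherian CRX it was 0.43 without control replicate 3, with 7 of 8 higher at an unadjusted p under 0.05, against 1.79% of all genes. It was 0.058 and 0.052 without control replicates 1 and 2, with 5 and 4 of 8 above 0. In the direct comparison it was -0.17 without metatherian CRX replicate 3, and all 8 stayed below 0 with any 1 library left out. *Psmb9* was at 3.05, 2.79 and 1.79 FPKM in control, 5.24, 5.93 and 2.24 with eutherian CRX, and 2.37, 3.33 and 1.43 with metatherian CRX. Eutherian CRX was above the other libraries of the same number in each pair, by 0.74 from control (SE 0.21, adjusted p = 0.35 from edgeR), and metatherian CRX was 0.88 below it (-0.88, SE 0.21, adjusted p = 0.27). *H2-D1* was at 88.6, 88.7 and 111 FPKM in control, 125, 121 and 126 with eutherian CRX, and 97.5, 101 and 58.3 with metatherian CRX. Each eutherian CRX library was above all others, with a difference of -0.55 between metatherian and eutherian CRX (SE 0.22, adjusted p = 0.42 from edgeR). *B2m* was by far the most abundant member, at 1104, 1059 and 1530.4 FPKM in control, 1265, 1406 and 1167 with eutherian CRX, and 1147, 1258 and 1127 with metatherian CRX, and its groups overlapped. *Nlrc5* was at 1.70, 1.78 and 2.87 FPKM in control, 2.16, 2.29 and 2.98 with eutherian CRX, and 1.85, 2.41 and 2.67 with metatherian CRX, and was highest in replicate 3 of every condition. Its groups overlapped in each comparison. In control, *B2m* and then *H2-D1* led the order of levels of all members, and neither overlapped its next neighbour. Of 47 neighbours in that order, 43 overlapped in their range over the 3 libraries.

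The fits across all genes placed no member past the adjusted threshold in any comparison. For metatherian CRX against control, 0 of 42 members passed an adjusted p of 0.05 in edgeR, against 0.0295% of all genes tested. At an unadjusted p under 0.05 there were 7 higher members, against 9% of all genes, and 1 lower, against 10.5%. The fitted change was above 0 in 32 of 42 members, against 48.7% of all genes, and the median member was at 0.44 and the median gene at -0.01. Leaving out 1 library moved this median to 0.21 (control replicate 1 or 2), 0.26 and 0.28 (metatherian CRX replicates 1 and 2), 0.80 (metatherian CRX replicate 3) or 0.85 (control replicate 3). Of the 36 members that passed the filter in another condition too, 6 were higher and 1 lower at that p, 26 were above 0, and the median was 0.38. One member, *Rnf213*, had every metatherian CRX library above every control library, against 11.1% of all genes, and 1, *Irf1*, every library below, against 12.3%. DESeq2 called 6 members, all higher (*Usp18*, *Rnf213*, *Ifi44*, *Irgm1*, *Eif2ak2* and *Igtp*), against 4.66% of all genes, and 5 without *Ifi44*. The edgeR result turned on single libraries. Without metatherian CRX replicate 3, 10 members (8 of the 36, *Ifi44* and *Oas1a*, which did not pass the filters with all 9 libraries) passed the adjusted threshold, all higher, against 2.67% of all genes, and they included *Bst2* (1.397, adjusted p = 0.019), *Irgm1* (1.496, adjusted p = 0.011) and *Usp18* (2.49, adjusted p = 0.017). The members at an unadjusted p under 0.05 then numbered 23, against 30 without control replicate 3, and 3 or 4 without control replicate 1 or 2 or metatherian CRX replicate 1 or 2. With each library left out in turn, 10.1 to 25.7% of all genes had such a p. Without eutherian CRX replicate 3, *Irf1* (lower) and *Rnf213* (higher) passed the adjusted threshold, against 8.84% of all genes. With only replicates 1 and 2 of each condition, 33 members were higher and 1 lower at the adjusted threshold, against 11% and 11.1% of all genes. Of these 34, 28 were among the 36.

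Eutherian CRX against control gave 0 members at the adjusted threshold in edgeR, against 0.609% of all genes, and 0 in DESeq2, against 3.29%. At an unadjusted p under 0.05 there was 1 higher member, *Psmb9*, against 2.23% of all genes, and 0 lower, against 6.4%. The fitted change was above 0 in 12 of 42 members, against 50.4% of all genes. The median member was at -0.20 and the median gene at 0.00 (0.0016). Of the 36, 11 were above 0, with a median of -0.17. *H2-D1* was higher in every library, against 6.19% of all genes, and *Ifi27* lower, against 7.84%. The direction turned on control replicate 3, since without it the median became 0.34. In that fit 12 of 42 members had an unadjusted p under 0.05, all higher, against 182 of 10144 genes that were higher with such a p. With only replicates 1 and 2 of each condition the median was 0.24, with 35 of 42 members above 0, and the median gene was at 0.0039. The median was -0.38 without control replicate 1 or 2, -0.05 without eutherian CRX replicate 3 and -0.25 to -0.15 without any 1 of the other libraries. Members at an unadjusted p under 0.05 numbered 6 without metatherian CRX replicate 3, 2 without control replicate 1 and 0 without eutherian CRX replicate 1. Over the libraries left out in turn, 5.08 to 13.6% of all genes had such a p. With only replicates 1 and 2 of each condition, *H2-D1* (0.47), *H2-K1* (0.39) and *Ifit1* (0.51) passed the adjusted threshold, all as higher, against 0.485% of all genes.

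The direct comparison set the metatherian CRX group against the eutherian CRX group, and it too gave 0 members, and 0% of all genes, at the adjusted threshold in edgeR. At an unadjusted p under 0.05, 15 members were higher with metatherian CRX, against 7.42% of all genes, and 3 lower (*Irf1*, *Psmb9* and *H2-D1*), against 4.17%. The fitted difference was above 0 in 33 of 42 members, against 48.7% of all genes, and the median member was at 0.72 and the median gene at -0.01. Outside MHC class I, 33 of 34 tested members were above 0, with a median of 0.82. Among the 36 members that passed the filter in another condition too, 12 were higher and 3 lower at that p, 27 were above 0 (median 0.65), and 27 of 28 outside MHC class I (median 0.76). The groups did not overlap for 9 higher members (7 of the 36), against 6.22% of all genes, and 1 lower, against 5.33%. DESeq2 called 7 members, namely *Irgm1*, *Ifi44*, *Eif2ak2*, *Usp18*, *Trim25* and *Gbp3* as higher, against 2.27% of all genes, and *Psmb9* as lower, against 0.914%. Without *Ifi44* and *Gbp3*, 5 were left. In edgeR, 8 members (6 of the 36, *Ifi44* and *Oas1a*), all higher, passed without metatherian CRX replicate 3, against 1.17% of all genes. The 18 members at an unadjusted p under 0.05 became 31 without that library and 32 without control replicate 3, 4 and 7 without metatherian CRX replicates 1 and 2, and 10, 9 and 8 without eutherian CRX replicates 1, 2 and 3, with 4.37 to 21.0% of all genes over the libraries left out in turn. With only replicates 1 and 2 of each condition, 31 members were higher and 4 lower at the adjusted threshold, against 12.6% and 9.81% of all genes. Of these 35, 29 were among the 36.

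**Figure D5:**
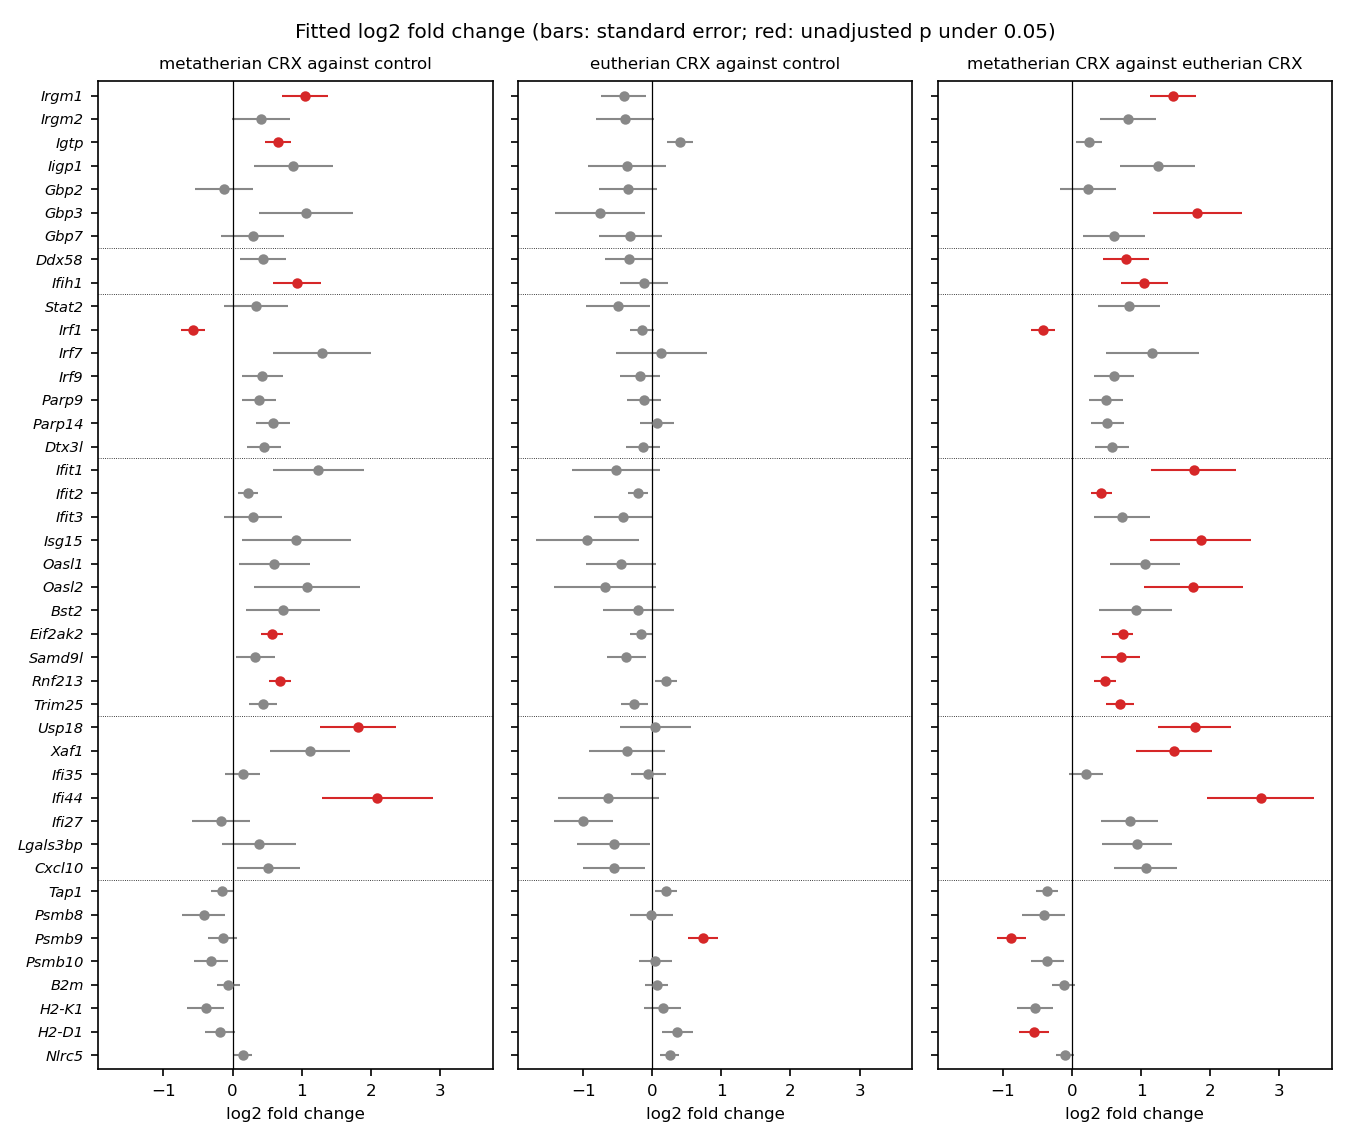
Fitted log2 fold change from edgeR (points) with its standard error (bars) for the 42 tested members, grouped by role, in the 3 comparisons; red marks an unadjusted p under 0.05, and no member passed after adjustment. Most points outside the last group, MHC class I presentation, lie right of 0 in the comparisons of metatherian CRX, and all 8 of that group lie left of 0 in the direct one.

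The pathway genes outside the members were pooled first. Of 89 other pathway genes with a row, 49 were tested, and in edgeR none passed the adjusted threshold in any comparison. At an unadjusted p under 0.05 there were 2 higher and 3 lower with metatherian CRX against control, against 9% and 10.5% of all genes. There were 0 and 2 with eutherian CRX against control, against 2.23% and 6.4%, and 5 and 2 between the orthologues, against 7.42% and 4.17%. The medians over the 49 were -0.03, -0.13 and 0.02. The 12 other induced genes among them had medians of 0.25, -0.36 and 0.47, and 11 of the 12 were above 0 in the direct comparison. Their median difference between metatherian CRX and control was 0.54, 0.68 and -0.68 in pairs 1, 2 and 3. The 13 other class I presentation genes had medians of -0.18, -0.045 and -0.087 in the 3 comparisons. Of these 13, 4 were above 0 with eutherian CRX against control, against 50.4% of all genes. Between the orthologues 8 of the 13 were below 0, against 51.3% of all genes, and 0 had an unadjusted p under 0.05. The interferon genes themselves were nearly silent. Of 10 ligand genes, 7 had 0 counts in every library, which allows up to 3 counts each, and the highest count of any was 7. *Ifnb1* had 0 counts in 8 libraries and 2 in metatherian CRX replicate 3. The 8 tested receptor and kinase genes had medians of -0.01, -0.08 and -0.04. *Socs1*, a feedback inhibitor of JAK signalling, was lower with metatherian CRX than in control by -0.96 (SE 0.27, adjusted p = 0.14 from edgeR). *Socs3*, an inhibitor of the same family that was not on the pathway list and was picked after its values were seen, was lower with both orthologues, by -1.22 for metatherian (SE 0.11, adjusted p = 0.042 from edgeR) and -0.79 for eutherian CRX (SE 0.11, adjusted p = 0.039). It was at 21.996, 24.5 and 13.9 FPKM in control, 12.3, 13.5 and 8.68 with eutherian CRX, and 10.6, 9.43 and 5.94 with metatherian CRX. Neither edgeR call held without the replicate block (adjusted p = 0.19 and 0.64) or without any 1 control library (0.13 to 0.31 and 0.17 to 0.32). The metatherian call was also lost with looser filters on low values (0.058 and 0.051) and without replicate 1 or 2 of either CRX group (0.091 to 0.39). The eutherian call was also lost with only the 6 libraries compared (0.075). It was lost, too, without any 1 eutherian CRX library (0.080 to 0.34) or metatherian CRX replicate 1 or 2 (0.074 to 0.092). *Ifi204*, a sensor of DNA, was 1.42 above eutherian CRX (SE 0.36, adjusted p = 0.27 from edgeR).

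Markers of other cell types were measured beside these genes. Leukocyte and macrophage markers summed to 10.4 to 38.1 FPKM in control, 4.61 to 20.1 with eutherian CRX and 3.06 to 9.08 with metatherian CRX. Of 11 with a row, 10 had a lower mean with metatherian CRX than in control and 9 with eutherian CRX, and *Aif1* and *Cx3cr1* were at 0 counts in at least 1 library. Of the 11, 3 were tested and none passed the adjusted threshold in edgeR. At an unadjusted p under 0.05, 2 of the 3 were lower with metatherian CRX than in control, against 10.5% of all genes. The 7 epithelial markers summed to 0.430 to 2.46 FPKM in control, 0.253 to 9.13 with eutherian CRX and 1.06 to 6.41 with metatherian CRX, and were highest in replicate 3 of each condition. In replicate 3 most of this was *Krt18*, the 1 tested, with 14, 33 and 210 counts in control, 8, 15 and 896 with eutherian CRX and 82, 116 and 541 with metatherian CRX, while *Krt8*, *Krt5* and *Krt14* were at 0 in at least 1 library. The 8 endothelial markers summed to 5.25 to 5.79, 4.77 to 7.31 and 4.53 to 5.91 FPKM in the same order, with *Emcn*, *Tie1* and *Cldn5* at 0 in at least 1 library. The 10 fibroblast markers summed to 9124 to 10511 FPKM in control, 4446 to 8645 with eutherian CRX and 4876 to 8759 with metatherian CRX. None was at 0 counts in any library, and the lowest sums were those of replicate 3 of the CRX groups. With metatherian CRX 8 of the 10 had a lower mean than in control (median log2 fold change -1.21). Of these 10, 7 were lower at an unadjusted p under 0.05, against 10.5% of all genes. With eutherian CRX these counts were 9 and 3 (median -0.40), the latter against 6.4% of all genes. None passed after adjustment in edgeR. Proliferation genes had a lower mean with either orthologue in 9 of 9, with sums of 72.7 to 87.3 FPKM in control, 45.5 to 52.4 with eutherian CRX and 47.1 to 58.7 with metatherian CRX. Of the 8 tested in edgeR, 3 were lower with eutherian CRX than in control after adjustment, namely *Mki67* (-2.06, adjusted p = 0.027), *Top2a* (-1.63, adjusted p = 0.027) and *Bub1* (-1.63, adjusted p = 0.031). These calls were lost without the replicate block (adjusted p of 0.17 to 0.21), with only the 6 libraries compared (0.057 to 0.065) and without any 1 control or eutherian CRX library with which the gene was tested (0.061 to 0.28). In edgeR they were also lost without metatherian CRX replicate 1 (0.089 to 0.092), and that of *Bub1* without metatherian CRX replicate 2 (0.051). At an unadjusted p under 0.05, 7 of 8 were lower with eutherian CRX, against 6.4% of all genes. With metatherian CRX 8 of 8 were, against 10.5% of all genes, and none passed after adjustment. The part of any of these markers in the results was not tested.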

How the data were processed

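RNA-seq libraries of MEFs were analysed, 3 each of control, eutherian CRX and metatherian CRX. The authors aligned paired reads to mm10 (GRCm38) with STAR and deposited raw counts per gene from featureCounts, without normalization or pooling. Strand setting and reads with several alignments are not given in the sources used here, so that counts of multigene families (Ifit, Gbp, Oas, Irgm, H2) are uncertain. In addition, 9 members have exon intervals on alternate scaffolds.

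All counts were analysed with edgeR 4.0.16, limma 3.58.1 and DESeq2 1.42.0 in R 4.3.3. Of 22068 genes, 14599 passed filterByExpr and 10177 of these exceeded 2 FPKM in the mean of 1 or more conditions. FPKM was computed from the counts, TMM factors (0.96 to 1.11) and merged exon length on chromosomes. Tests were quasi-likelihood fits (glmQLFit, glmQLFTest) blocked by replicate number, with Benjamini-Hochberg adjustment over the 10177 genes. The SE was obtained from the fold change and F. Log2 CPM used a prior count of 2. Simulated data tested the fits. Replicates differed by far more than sampling noise (chi-square per degree of freedom 30.6 to 1166), and floors of 3 counts cover counting error only.

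The block follows the statement that samples were prepared in pairs. Deviations from the group mean correlated above 0.1 in 8 of 9 pairs of the same number (0.0054 to 0.75) and in 5 of 18 of different numbers, which leaves the pairing by number unproven.

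Members and gene lists were chosen with earlier results of these data known. Named are *Irgm1*, the 8 members with the lowest p in each comparison, and the most abundant member of each of 6 roles. Of the lists, *Ifnb1*, *Crx* and genes at an adjusted p under 0.05 are named, and another gene that the rule names is not reported here. Promoters are shown for the 4 members of lowest p that hold the ISRE letters, *Irgm1* among them. Other genes named were picked after their values were seen. Alternatives were no block, upper-quartile and relative-log-expression scaling, filterByExpr alone, no filter, DESeq2, only the 6 libraries compared and each library left out. Only replicates 1 and 2, and exon length over all intervals, were added after the data had been seen.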

Additional observations from a re-analysis of the deposited data

How the results depend on the processing

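The number of genes called in edgeR (3, 62 and 0 for metatherian CRX against control, eutherian CRX against control and the direct comparison) and the number of members at an unadjusted p under 0.05 (8, 1 and 18) depended on the libraries and the tool. DESeq2 called 1011, 335 and 324 genes. It gave 12, 2 and 28 of 42 members at an unadjusted p under 0.05, against 2265, 1046 and 1392 of 10177 genes. With only the 6 libraries compared, metatherian CRX gave 400 genes against control. Eutherian CRX gave 0, with 4 of 36 members at an unadjusted p under 0.05, against 873 of 10096 genes. For eutherian CRX against control, filterByExpr alone gave 3 of 48 such members, against 1409 of 14599 genes. No filter gave 4 of 48, against 1468 of 18312 genes, with 109 genes called. Exon length over all intervals gave 0 of 41, against 865 of 10100 genes. With only replicates 1 and 2 of each condition, 2237, 299 and 2267 genes were called, with 35, 20 and 38 members at an unadjusted p under 0.05, against 36.1%, 16.1% and 37.1% of all genes.

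Leaving out 1 library at a time, the genes called ranged from 0 to 900 for metatherian CRX against control, 0 to 118 for eutherian CRX against control and 0 to 350 in the direct comparison. The members at an unadjusted p under 0.05 ranged from 3 to 30, 0 to 12 and 4 to 32. The shares of all genes at such a p ranged from 10.1 to 25.7%, 5.08 to 13.6% and 4.37 to 21.0%. Where a group keeps 2 libraries, its spread is pooled with the others.

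Without the replicate block, 0 genes passed in either comparison with control. In the 3 comparisons 10, 0 and 16 of 42 members then had an unadjusted p under 0.05, against 1330, 620 and 657 of 10177 genes. No member passed after adjustment with or without the block.

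The fitted change of *Samd9l* with eutherian CRX against control (-0.38) ranged from -0.66 to 0.050 with 1 library left out, the highest without control replicate 3, and was 0.080 with only replicates 1 and 2. Of the 6 members named for their level, 5 changed sign as well, and *Irgm1* did not. With 1 library left out, *Stat2* ranged from -0.057 to 1.10, *Lgals3bp* from -0.061 to 1.17 and *B2m* from -0.21 to 0.17 for metatherian CRX against control. For eutherian CRX against control, *Ddx58* ranged from -0.61 to 0.22, *Stat2* from -0.87 to 0.30, *Bst2* from -0.44 to 0.43, *Lgals3bp* from -0.98 to 0.34 and *B2m* from -0.093 to 0.28. With only replicates 1 and 2, *B2m* was at 0.15 for metatherian CRX, and *Ddx58* (0.16), *Stat2* (0.25), *Bst2* (0.035) and *Lgals3bp* (0.17) turned positive for eutherian CRX. Of the values of members named for a low p, in the comparison that named them, and of *Irgm1* and those named for their level, in all comparisons, 19 changed sign, 647 kept direction and side of the threshold and 52 newly passed it. Medians of the members moved, in all 54 alternative values, by less than the SD of the medians of the replicate pairs. This SD includes pair 3, which stood apart, so that it is a loose limit and does not show the medians to be stable. The median for eutherian CRX against control changed sign without control replicate 3 (0.34) and with only replicates 1 and 2 (0.24). The cause of these changes was not tested.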
